A study of Mus musculus with 12 samples.

Results

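The annotated osteoblasts are 127 of the 8042 cells in the cell table the authors deposited, chosen by the authors' own cell annotation and matched by barcode and library to the 2 wells of cells sorted as synovial fibroblasts (viable, CD45- and GR-1-). All 127 were found, 76 in the well of experiment 1 and 51 in the well of experiment 2, and they made up a small share of the 3551 cells kept there. They are described beside 96 annotated chondrocytes and 3325 matched cells of 5 fibroblast annotations (Mmp3+, Il6+, Pi16+, Lining and Cd200+). All mice were of the strain R5 x R26tdTomato, with the genotype Il5 wt/Cre; R26 tdTom/tdTom, aged 8 to 10 weeks, and cells came from ankle and wrist joints. An antibody hashtag marked each condition within a well: healthy (untreated), serum transfer arthritis (STA) and STA with Il23mc in experiment 1, and healthy, mild STA and severe STA in experiment 2. STA is a model in which transferred serum brings on joint inflammation, and the labels used here give neither its day nor its dose. Per the labels, the cells of a well were pooled from 4 animals, but only 3 hashtags were used in it. The hashtag is therefore the unit of replication, and how many animals it stands for is not known. The words mild and severe come from the deposited hashtag names. Levels below follow the order healthy 1, healthy 2, STA 1, mild STA, severe STA and Il23mc.

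Osteoblasts build bone: they secrete a type I collagen matrix and then let calcium phosphate settle in it. The transcription factors Runx2 and Sp7 set up this program, alkaline phosphatase (Alpl) removes the mineral inhibitor pyrophosphate, and acidic proteins such as bone sialoprotein (Ibsp) and osteocalcin (Bglap) bind mineral. Osteoblasts also steer bone resorption through Tnfsf11 (RANKL) and its decoy receptor Tnfrsf11b (osteoprotegerin), and some become buried in bone as osteocytes. In inflamed joints bone beside the synovium is eroded, and osteoblasts, which lack CD45, can pass a sort for CD45- cells.

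The hashtags held 31, 21, 29, 11, 19 and 16 osteoblasts with 331346, 414088, 478320, 203253, 449101 and 279919 UMIs, where a UMI counts 1 captured RNA molecule. The median osteoblast had 13939 UMIs, against 10667.5 in chondrocytes and 14619 in fibroblasts. No cell barcode was shared between the wells. In the healthy hashtags the hashtag with most raw UMIs was the one the authors called in 20 of 31 and 14 of 21 osteoblasts, and in all osteoblasts of the other 4 hashtags; its part in the results was not tested. The Y-linked gene Ddx3y was at 0 in osteoblasts of mild STA and at 29.0 to 51.3 CPM (UMIs per 1000000 UMIs of the summed cells) in the other hashtags, and the part of sex was not tested. Values per UMI are not corrected for length, since this 3-prime chemistry reads 1 end of each RNA.

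All 4 marker genes were higher in osteoblasts than in fibroblasts in all 6 hashtags. Against chondrocytes the exceptions were Bglap and Ifitm5 in mild STA, where chondrocytes stood higher. Ibsp (chromosome 5, 104299171 to 104311469, plus strand, mm10) stood at 21292, 1357, 5603, 7365, 6582 and 6895 CPM in osteoblasts. In the summed fibroblasts of a hashtag it reached 68.9 CPM and in chondrocytes 788 CPM at most, while Cd200+ fibroblasts alone reached 700 CPM. In healthy 1, the highest, a single cell held 5203 Ibsp UMIs, 73.7% of that hashtag's total, and without it healthy 1 stood at 6141 CPM. Bglap (chromosome 3, 88383501 to 88384464, minus strand) stood at 3093, 2413, 644, 743, 1345 and 2083 CPM, with both healthy hashtags above all 3 STA hashtags. Alpl (chromosome 4, 137741733 to 137796384, minus strand) stood at 1464, 505, 805, 399, 741 and 450.1 CPM. The summed fibroblasts reached 23.5 CPM for Alpl, and Cd200+ fibroblasts alone 293 CPM. Ifitm5, a bone-restricted membrane protein that acts in mineralisation (chromosome 7, 140948958 to 140950291, minus strand), stood at 157, 169, 81.5, 4.92, 410 and 357 CPM. In mild STA its level rested on 1 UMI, while mild STA chondrocytes, at 133 CPM, held more. Over the 6 hashtags the means were 8182 ± 6782 CPM for Ibsp, 1720 ± 975 for Bglap, 727 ± 396 for Alpl and 197 ± 157 for Ifitm5 (SD, n = 6), so each marker spread widely around its mean.

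Because the class is recognised by these genes, the sequence before their transcription starts is shown for 3 of them (RefSeq, GRCm38.p6, 250 bases ending at the base before the start, 5′ to 3′ on the gene's strand). RefSeq starts can differ from the gene ends given above, which come from GENCODE. Capitals mark matches to TATAAA or CCAAT on either strand.
Bglap, chr3:88384467-88384716, minus strand: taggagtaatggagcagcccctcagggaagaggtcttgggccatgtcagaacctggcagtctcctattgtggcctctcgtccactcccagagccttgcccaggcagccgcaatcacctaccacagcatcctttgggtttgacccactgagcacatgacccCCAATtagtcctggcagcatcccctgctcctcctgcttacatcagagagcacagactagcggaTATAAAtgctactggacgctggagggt
Ibsp, chr5:104299037-104299286, plus strand: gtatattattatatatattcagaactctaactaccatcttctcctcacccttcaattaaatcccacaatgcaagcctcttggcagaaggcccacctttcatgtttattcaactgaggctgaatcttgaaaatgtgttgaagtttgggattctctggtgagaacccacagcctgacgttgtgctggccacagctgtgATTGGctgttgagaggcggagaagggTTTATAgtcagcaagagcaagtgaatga
Ifitm5, chr7:140950244-140950493, minus strand: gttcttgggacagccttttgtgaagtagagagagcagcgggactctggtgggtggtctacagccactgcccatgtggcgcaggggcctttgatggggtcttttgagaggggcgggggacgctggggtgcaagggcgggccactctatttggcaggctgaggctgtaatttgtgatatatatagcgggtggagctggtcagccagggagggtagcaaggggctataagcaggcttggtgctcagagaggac
Bglap and Ibsp thus share a TATAAA match within 30 bases of the start and a CCAAT match upstream of it, and Ifitm5 has neither. Of 32851 such mouse windows, 12.4% hold TATAAA and 33.8% hold CCAAT on either strand. The Runx2 motif AACCACA, on either strand, is in 4.4% of the windows and in none of the windows of the 4 markers. A match is a description of letters, not of binding. Bglap also has near-identical neighbours: 299 of the last 300 bases of its transcript are the same in Bglap2 and 290 in Bglap3, so the split of 3-prime reads between Bglap and Bglap2 is uncertain. Bglap2 stood at 4681, 3439, 853, 1117, 1307 and 1072 CPM and Bglap3 at 72.4 CPM or less, and Bglap2 kept the order seen for Bglap between healthy and STA.

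**Figure D1:**
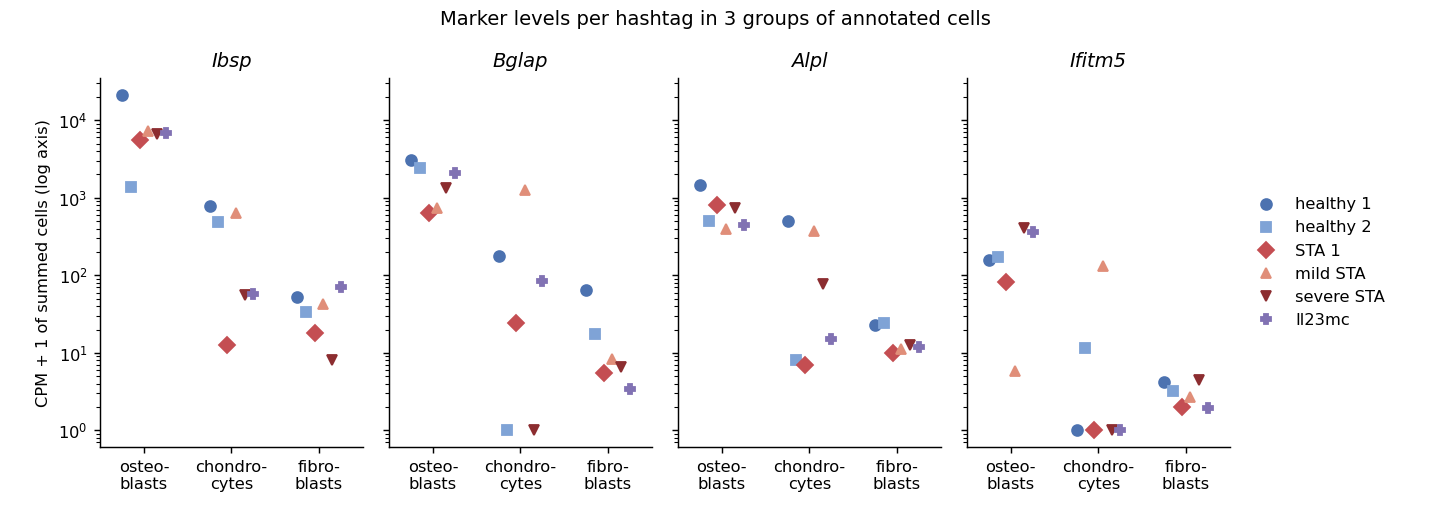
Level of each marker (CPM + 1, log axis) in the summed osteoblasts, chondrocytes and fibroblasts of each of the 6 hashtags, 1 point per hashtag. Osteoblast points lie above the fibroblast points in every hashtag, with Ifitm5 in mild STA low at 4.92 CPM; for Bglap the mild STA chondrocytes reach 1244 CPM.

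The transcription factors and the bone matrix were present throughout. Runx2 stood at 329, 159, 161, 187, 223 and 229 CPM, and 33.0 CPM was the most in the summed fibroblasts of a hashtag. Sp7, which acts downstream of Runx2, ranged from 40.1 to 66.4 CPM, against 1.61 CPM or less in the summed fibroblasts. Cd200+ fibroblasts alone held more, with Runx2 at 99.6 to 212 CPM, which overlaps the osteoblast range, and Sp7 at up to 28.3 CPM. Col1a1, a chain of type I collagen, stood at 17039.6, 27835, 25845, 17539.7, 39365 and 26400.5 CPM, against 14159 CPM over all chondrocytes and 12902 CPM over all fibroblasts. Per hashtag the classes overlapped, with 5054 to 34172 CPM in chondrocytes and 8006 to 25116 CPM in Mmp3+ fibroblasts. Spp1 (osteopontin, a phosphoprotein of bone) was uneven, at 7838, 1949, 1455, 3483, 6106 and 2297 CPM, and in healthy 1 the cell that led in Ibsp also held 72.1% of the Spp1 UMIs. Omd (osteomodulin, a small proteoglycan of bone) ranged from 251 to 990 CPM, Ostn (osteocrin, a peptide that osteoblasts secrete) from 118 to 1002 CPM and Pth1r (the parathyroid hormone receptor) from 218 to 541 CPM. Cd200+ fibroblasts overlapped these ranges for Omd (254 to 626 CPM) and Ostn (56.5 to 695 CPM) but not for Pth1r (15.7 to 98.9 CPM). Of the genes that act on bone resorption, Tnfsf11 stood at 42.3, 41.1, 41.8, 226, 46.8 and 64.3 CPM and Tnfrsf11b at 145, 53.1, 37.6, 39.4, 89.1 and 17.9 CPM. Mmp13, the collagenase of bone and cartilage, ranged from 1340 to 3596 CPM. Other classes overlapped these ranges. Mmp3+ fibroblasts held Mmp13 at 571 to 2137 CPM and Tnfsf11 at 24.6 to 123 CPM. Chondrocytes held Spp1 at 133 to 3572 CPM and Tnfrsf11b at up to 273 CPM, but Mmp13 at 591 CPM or less and Tnfsf11 at 35.4 CPM or less.

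The genes most tied to osteocytes were at or near 0, while others on the same list were not. Sost and Dkk1, secreted Wnt inhibitors, had no UMI in any of the 127 cells, which for Sost allows a share of up to 2.36% of cells with a UMI (3 of 127). Dmp1, an acidic protein of osteocytes, had 40 UMIs in 6 cells, Mepe had 9 UMIs, and Phex, a protease linked to phosphate balance, had 4. Those 40 Dmp1 UMIs lay in the healthy, severe STA and Il23mc hashtags, and STA 1 and mild STA had none. Of the 15 listed genes 11 were detected, and their summed level was 661 to 705 CPM in healthy, 1121 to 1358 CPM in STA and 693 CPM in Il23mc osteoblasts, against 401 to 896 CPM in fibroblasts. Most of that sum was Tnc, whose values per hashtag are given with the STA comparison. Pdpn (podoplanin) ranged from 69.0 to 123 CPM in osteoblasts and from 142 to 346 CPM in fibroblasts, and Ptprz1, a receptor phosphatase, from 3.57 to 112 CPM in osteoblasts and up to 1.61 CPM in fibroblasts.

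The cells differed widely from each other. Of the 127, 21 held UMIs of all 4 markers, 47 of 3, 39 of 2, 18 of 1 and 2 of none; 107 held at least 2 markers, as did 7 of 96 chondrocytes and 86 of 3325 fibroblasts. With at least 5 UMIs as the mark of presence, 38 cells had both Ibsp and Bglap, 39 Ibsp alone, 25 Bglap alone and 25 neither. The cells with both came from healthy 1 (14), healthy 2 (8), STA 1 (7), severe STA (7) and Il23mc (2), and none from mild STA. Summed Col1a1 was 40888 CPM in the cells with both, 23991 with Ibsp alone, 15362 with Bglap alone and 21016 with neither. Leaving out the 9 Col2a1-high cells described next, of which 5 had neither marker, changed the last 3 values to 24479, 21119 and 34729 CPM, so that cells with neither stood above the cells with 1 of the markers. The 13 cells with most UMIs of a gene held 75.4% of all Ibsp, 63.7% of Bglap, 37.2% of Alpl and 89.0% of Ifitm5 UMIs, so Alpl was spread most evenly of the 4.

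A small set of the annotated osteoblasts carried only part of this program. In 9 cells Col2a1, the type II collagen of cartilage, reached 1094 to 2846 UMIs, while the next highest osteoblasts had 103, 20 and 2; these 9 cells held 99.2% of the class's Col2a1 UMIs. They came from healthy 1 (1), healthy 2 (4), STA 1 (1), mild STA (1) and severe STA (2). Their summed level was 59170 CPM for Col2a1, 4722 for Acan (the main proteoglycan of cartilage) and 2078 for Sox9 (the transcription factor of cartilage), against 76.2, 477 and 290 CPM in the other 118 osteoblasts. Only 2 of the 9 had an Ibsp UMI, and 8 of the 9 had at most 10 Col1a1 UMIs, as did 8 of the 118. Other osteoblast genes were present in them: Sp7 had UMIs in 6 of the 9 (26.2 CPM, against 57.3 in the other osteoblasts, 0.97 in chondrocytes and 0.50 in fibroblasts), Alpl in 7 (141 CPM, against 852, 156 and 11.8), Bglap in 6 (137 CPM, against 1961, 246 and 8.72) and Bglap2 in 7. They also stood apart from the annotated chondrocytes, none of which reached 500 Col2a1 UMIs (the highest had 380). The annotated chondrocytes were high in Prg4 (lubricin, 6542 CPM) and Dcn (decorin, 20924 CPM), which the 9 cells held at 49.1 and 962 CPM. Runx2 was at 170 CPM in the 9 cells, 217 in the other osteoblasts and 24.3 in chondrocytes, and Col10a1 of hypertrophic cartilage had no UMI in them. The 9 cells were also deep, with a median of 32689 UMIs against 13212.5, and held 14.2% of the class's UMIs. These 9 cells thus had cartilage matrix genes beside Runx2 and Sp7 and little of the bone matrix, and the label alone does not describe them; the main counts, and the genes and lists on which they weigh, are given with and without them.

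**Figure D2:**
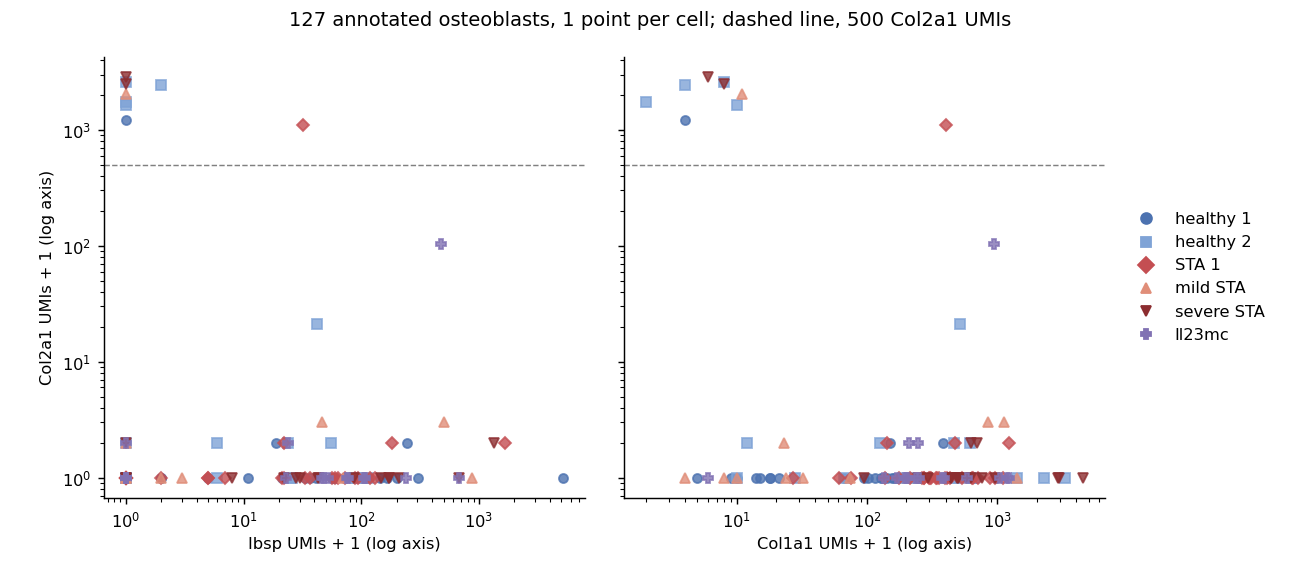
Each point is 1 of the 127 annotated osteoblasts, with its Col2a1 UMIs + 1 against its Ibsp UMIs + 1 (left) and its Col1a1 UMIs + 1 (right), all on log axes; the dashed line marks 500 Col2a1 UMIs. The 9 cells above the line have 1094 or more Col2a1 UMIs and 8 of them at most 10 Col1a1 UMIs.

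Ranked by the lowest ratio to the other kept cells over the 3 hashtags with at least 20 osteoblasts, the 25 leading genes held 9 members of the bone and osteoblast lists and 6 of the chondrocyte list. Col11a1 is on the lists of both kinds and counts in each. Bglap led with a lowest log2 ratio of 5.46, followed by Col2a1 (5.06), Snorc (4.97), Bglap2 (4.96), Alpl (4.45), Ibsp (4.25), Matn3 (4.02), Omd (3.88), Ostn (3.80) and Pth1r (3.69). Snorc and Matn3 are cartilage matrix genes; without the 9 cells the ratios of Col2a1, Snorc and Matn3 turned to -3.89, -2.76 and -2.77. The other 22 stayed above 2-fold, among them the 3 remaining chondrocyte markers Hapln1 (2.01 without the 9 cells), Acan (1.80) and Col11a1 (1.57). The other leading genes included Fgfr2, a receptor for fibroblast growth factors, Runx2, the transcription factor Mef2c, the matrix protein Tnn (tenascin-W) and Clec11a (osteolectin, a bone growth factor). These ratios describe the annotated class and carry no test, since the authors' annotation may rest on the same genes.

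Detection per cell was compared after each cell was thinned to 2000 UMIs. Ibsp was then seen in 62.2% of osteoblasts (67.7% unthinned), Bglap in 56.7% (72.4%), Alpl in 68.5% (90.6%) and Ifitm5 in 14.96% (22.0%). Over all fibroblasts the thinned shares were 1.94%, 1.55%, 2.49% and 0.333%, at a median depth of 14619 UMIs before thinning against 13939 in osteoblasts. They were not even between fibroblast annotations: Ibsp ranged from 0.633% (Lining) to 10.2% (Cd200+), Bglap from 0.303% (Mmp3+) to 16.7% (Cd200+), Alpl from 0.633% (Lining) to 24.1% (Cd200+) and Ifitm5 from 0 (Lining) to 0.926% (Cd200+). Lining cells also had Bglap in 10.8% after thinning. The pooled fibroblast share is therefore not the background of cells without these genes, but the osteoblast share stood above that of each fibroblast annotation for all 4 markers. The Cd200+ cells held a median over hashtags of 103 CPM for Ibsp, 120.2 for Bglap and 196 for Alpl. Across 6310 genes the osteoblast profile of a hashtag correlated with that of its fibroblasts at a Pearson r of 0.68 to 0.84 and with its chondrocytes at 0.64 to 0.75, as a description of libraries that share a well.

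Markers of other cell types gave these summed levels. Leukocyte markers stood at 4.83 to 12.1 CPM in healthy and 6.68 to 118 CPM in STA hashtags, with 7 of 12 detected and Cd3e, Cd79a, Itgam, Ly6g and Cd74 at 0. Mild STA, the hashtag at 118 CPM, also had a single cell with 55 Mpo and 113 Srgn UMIs beside 45 Ibsp and 840 Col1a1 UMIs. Mpo and Srgn are not among the 12 markers. Of these markers only Ptprc was looked up in that cell, which held 4 Ptprc UMIs. The cell's part in the 118 CPM was not tested. Endothelial markers reached 19.7 CPM with Kdr and Cldn5 at 0. Osteoclast markers, 4 of 8 detected, stood at 616 to 640 CPM in healthy, 280 to 621 CPM in STA and 475 CPM in Il23mc osteoblasts, against 289 to 660 CPM in fibroblasts. The protease Ctsk made up most of that sum (266 to 618 CPM), and Oscar, Dcstamp, Atp6v0d2 and Calcr were at 0. Synovial fibroblast markers, 17 of 18 detected, stood at 19568 to 35401 CPM in healthy and 11001 to 24902 CPM in STA osteoblasts, against 35100.2 CPM or more in fibroblasts. Chondrocyte markers, 14 of 15 detected, stood at 15434 to 47227 CPM in healthy and 7428 to 26571 CPM in STA hashtags, and at 3653 to 7688 CPM in all 6 once the 9 Col2a1-high cells were left out. The part of carried-over RNA or joined cells in these levels was not tested.

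The osteoblast share of the kept cells was lower in each STA hashtag than in both healthy ones, in a design too small for the test to pass. Osteoblasts were 6.71% (exact 95% interval 4.60 to 9.39%) and 6.65% (4.16 to 9.98%) in healthy, 2.94% (1.98 to 4.20%), 3.61% (1.81 to 6.36%) and 3.81% (2.31 to 5.88%) in STA 1, mild STA and severe STA, and 1.63% (0.932 to 2.63%) in Il23mc. Both healthy hashtags lay above all 3 STA hashtags, with means of 6.68 ± 0.0455% (SD, n = 2) and 3.45 ± 0.452% (SD, n = 3). The difference of 3.22 percentage points gave a 2-sided exact permutation p of 0.2, the smallest that 2 hashtags against 3 allow. Without the 9 Col2a1-high cells the means were 5.94 ± 0.788% and 3.18 ± 0.296% (SD, n = 2 and 3; difference 2.76 points, exact permutation p = 0.2). Mmp3+ fibroblasts took 2.16 and 9.18% of the kept cells in healthy, 38.7 to 66.5% in STA and 64.4% in Il23mc hashtags. Among cells other than Mmp3+ fibroblasts, osteoblasts were 6.86 and 7.32% in healthy, 8.79, 6.63 and 6.21% in STA and 4.57% in Il23mc, and the groups overlapped (exact permutation p = 1.0). Of osteoblasts and chondrocytes together, osteoblasts were 57.4 and 44.7% in healthy, 69.0 and 70.4% in STA 1 and severe STA and 11 of 22 in mild STA (exact permutation p = 0.4). The intervals cover counting error only, and shares of sorted cells are not counts of cells in a joint.

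**Figure D3:**
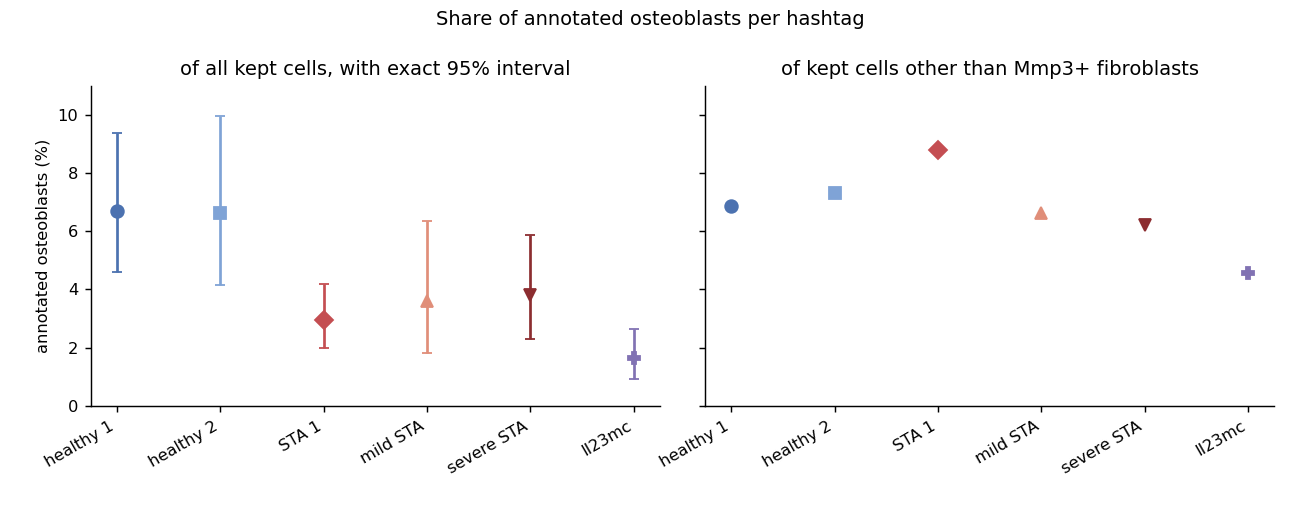
Share of annotated osteoblasts (%) per hashtag, of all kept cells with exact 95% intervals (left) and of kept cells other than Mmp3+ fibroblasts (right). On the left both healthy hashtags (6.71 and 6.65%) lie above the STA hashtags (2.94 to 3.81%); on the right STA 1 is highest at 8.79%.

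Between STA and healthy osteoblasts no gene passed the test. The osteocalcin genes Bglap and Bglap2 had lower values in every STA hashtag than in both healthy ones, and Tnc, Angptl4 and Mest had higher ones, but with 2 healthy and 3 STA hashtags these differences did not pass over 5350 genes. edgeR's quasi-likelihood test with a term for the experiment called 0 of 5350 genes at a Benjamini-Hochberg adjusted p under 0.05 (0.0%), and 473 had an unadjusted p under 0.05. DESeq2 called 16, of which 3 were higher and 13 lower, and gave no adjusted p to 3423 genes. Without healthy 1 edgeR called 2 genes, without healthy 2 it called 86, without STA 1 112, without mild STA 0 and without severe STA 23; each of these fits has 1 residual degree of freedom. Without the 9 Col2a1-high cells it called 2, Bglap2 (log2 fold change -2.19, adjusted p = 0.017) and Sbsn (-4.82, adjusted p = 0.017). In 23.9% of the genes tested the healthy and STA hashtags had values that did not overlap, 13.8% with STA higher and 10.1% with STA lower, which is the background for the genes that follow.

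Bglap2 had the lowest p, with a log2 fold change of -1.94 (SE 0.25, edgeR adjusted p = 0.137), and Bglap was at -1.68 (SE 0.33, adjusted p = 0.194); their values per hashtag are given above. Dcn, a small collagen-binding proteoglycan, stood at 15368, 8085, 4888, 2165, 3478 and 4787 CPM (log2 fold change -1.59, SE 0.23, adjusted p = 0.137). Comp, a matrix protein of cartilage and tendon, stood at 6543, 4320.3, 1994, 2421, 2233 and 1776 CPM (adjusted p = 0.143); the 9 Col2a1-high cells held 27.7% of its UMIs, and without them the healthy values of 6548 and 2177 CPM overlapped with 1653, 2287 and 2032 CPM in STA (adjusted p = 0.35). Nbl1, a secreted BMP antagonist, stood at 483, 338, 83.6, 133, 91.3 and 104 CPM (adjusted p = 0.137). All 3 STA hashtags, and Il23mc, lay below both healthy ones for Bglap, Bglap2, Dcn, Comp and Nbl1. In the other direction, Tnc (tenascin-C, an extracellular glycoprotein of wounded and inflamed tissue) stood at 353, 398, 1008, 1181, 951 and 522 CPM (log2 fold change 1.43, SE 0.23, adjusted p = 0.137). Angptl4, a secreted inhibitor of lipoprotein lipase, stood at 60.4, 26.6, 215, 280.4, 189 and 322 CPM (log2 fold change 2.45, SE 0.39, adjusted p = 0.137). Mest, an imprinted gene, stood at 36.2, 33.8, 297, 108, 122 and 204 CPM (log2 fold change 2.34, SE 0.38, adjusted p = 0.137), but in severe STA a single cell held 92.7% of its UMIs. These genes were picked for a low p in this test, and none of them passed it.

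**Figure D4:**
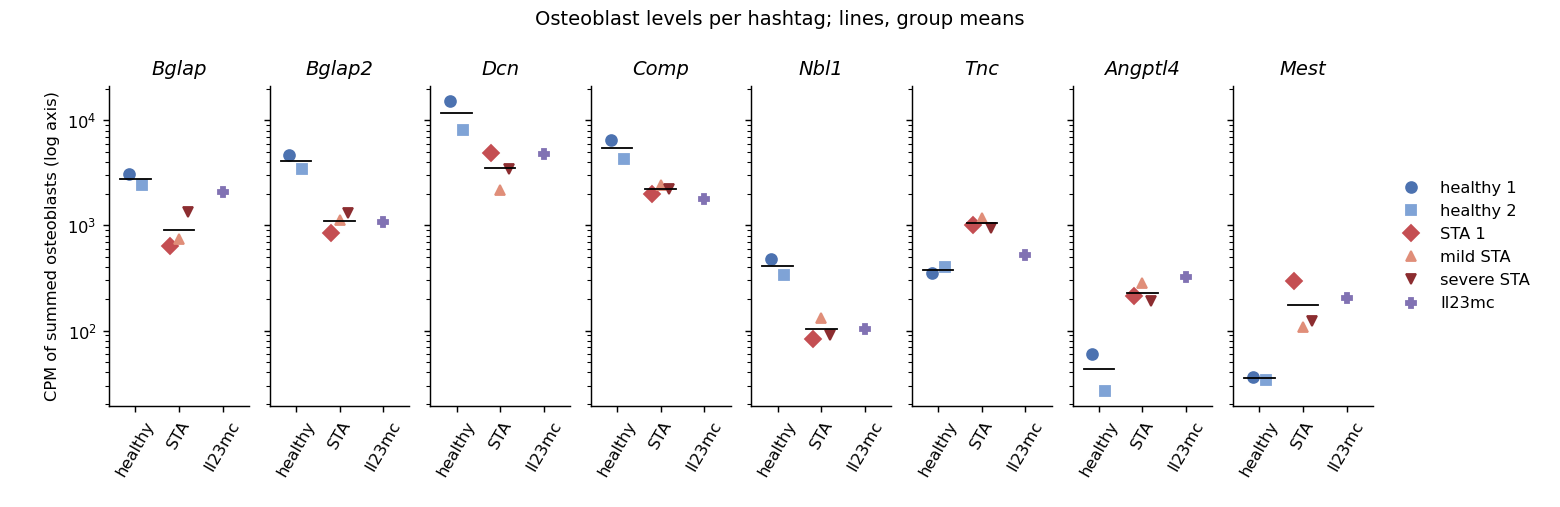
CPM in summed osteoblasts (log axis) of 8 genes, 1 point per hashtag, with lines at the means of the 2 healthy and 3 STA hashtags; Il23mc is a single hashtag. Bglap, Bglap2, Dcn, Comp and Nbl1 lie lower and Tnc, Angptl4 and Mest higher in all 3 STA hashtags, with adjusted p from 0.137 to 0.194.

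The other bone genes showed no common direction. Ibsp was at a log2 fold change of 0.34 (SE 0.95, adjusted p = 0.94) and depended on the hashtags used: it was 2.31 without healthy 1 (edgeR adjusted p = 0.046) and also without STA 1 (adjusted p = 1.2e-15), and -1.91 without healthy 2. In these fits a single healthy hashtag is set against STA within its experiment, it is assumed to vary like the others, and mild and severe STA alone give the spread. Alpl was at -0.30 (SE 0.35), Ifitm5 at -0.16 (SE 0.93), Runx2 at -0.28, Sp7 at -0.50, Spp1 at -0.43, Col1a1 at 0.26, Pth1r at 0.19 and Mmp13 at 0.19, with edgeR adjusted p from 0.716 to 0.973. Spp1 passed in opposite directions without healthy 2 (log2 fold change -2.41, adjusted p = 1e-11) and without STA 1 (1.27, adjusted p = 0.00033). The first of these sets healthy 1 against STA 1, where single cells held 72.1% and 65.2% of the Spp1 UMIs, and without the cell high in Ibsp healthy 1 stood at 2404 CPM and Spp1 at a log2 fold change of 0.40. Of 23 bone matrix genes tested none passed; their median log2 fold change was -0.37 beside -0.01 over all genes, 2 lay higher and 6 lower without overlap. For 13 osteoblast transcription factors the median was -0.11, and for 14 mineralisation genes -0.23. Of 28 genes for collagen processing (enzymes and chaperones that modify and fold procollagen) none passed, 23 had a positive change and the median was 0.35. Of 25 immediate early genes, which also respond to tissue dissociation, none passed, the median was -0.59 and 10 lay lower without overlap. The authors' stress score had medians of 0.968 and 0.300 in healthy, -0.257, 0.119 and -0.0755 in STA and 0.972 in Il23mc osteoblasts, and its part was not tested. Of 14 chondrocyte markers, 13 had a negative change with a median of -1.07, which became -0.23 over the 6 still tested without the 9 Col2a1-high cells. For the cell cycle list the median moved from -0.42 over 19 genes to 2.26 over the 12 still tested without those cells.

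The change from healthy to STA differed between osteoblasts and the fibroblasts of the same hashtags for a small number of genes. Ramp1, a receptor subunit for the neuropeptide CGRP, was higher in STA in osteoblasts and lower in STA in fibroblasts. Several genes with higher values in STA fibroblasts, among them Tnfsf11, Sfrp2, Postn and Mmp3, had no such shift in osteoblasts. edgeR's interaction test, with hashtags as blocks, called 134 of 10723 genes (1.25%), 18 with the osteoblast change higher (0.168%) and 116 with it lower (1.08%). Without healthy 2 it called 72 and without mild STA 263; without the 9 Col2a1-high cells it called 190, 56 higher and 134 lower, of which 99 were among the 134 called with them. The fibroblast sum also shifts in makeup, since the share of Mmp3+ cells among kept cells moves with STA as given above, and its part was not tested.

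Ramp1 stood at 18.1, 29.0, 77.4, 68.9 and 107 CPM in healthy and STA osteoblasts and at 53.7, 69.0, 7.11, 11.7 and 21.9 CPM in their fibroblasts. The difference in log2 change was 4.20 (SE 0.45, edgeR adjusted p = 2.4e-05), although the mild STA value rested on 1 cell. Mgll (monoacylglycerol lipase) stood at 60.4, 55.5, 75.3, 103 and 53.4 CPM in osteoblasts, with overlap, and at 63.4, 55.8, 10.5, 21.9 and 15.9 CPM in fibroblasts (difference 2.40, adjusted p = 0.0017), and lost the call without healthy 1 (adjusted p = 0.055) or STA 1 (0.053). Ccl2, a chemokine for monocytes, stood at 782, 33.8, 947, 546 and 223 CPM in osteoblasts and at 1040 to 2403 CPM in fibroblasts (difference 2.80, adjusted p = 0.0024). The Ccl2 call rested on the low healthy 2 value and was lost without that hashtag (1.39, adjusted p = 0.48).

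Among the genes with the lower osteoblast change, Tnfsf11 (RANKL), the osteoclast-inducing cytokine, is the one most tied to bone. Its osteoblast values, given above, overlapped between healthy and STA, with mild STA alone high at 226 CPM, while in fibroblasts it went from 3.51 and 3.87 CPM in healthy to 51.0, 73.4 and 42.6 CPM in STA (difference -3.07, SE 0.55, adjusted p = 0.0037). In STA the fibroblast level was thus close to that of osteoblasts in 2 of 3 hashtags, and in mild STA it was lower. The mild STA osteoblast value came from 5 cells, 1 of which held 54.3% of the Tnfsf11 UMIs. Mmp3 (stromelysin) stood at 118, 722, 109, 24.6 and 26.7 CPM in osteoblasts and went from 367 and 223 to 1356, 1225 and 818 CPM in fibroblasts (difference -4.66, adjusted p = 0.00033), a call lost without healthy 2 (adjusted p = 0.13). A single cell held 82.3% of the Mmp3 UMIs of healthy 2 osteoblasts. Sfrp2, a secreted Wnt modulator, stayed at 26.6 CPM or less in healthy and STA osteoblasts. In fibroblasts Sfrp2 went from 46.7 and 173 to 361, 509 and 892 CPM (difference -4.06, edgeR adjusted p = 0.0013). Il23mc osteoblasts, which are not in this test, held Sfrp2 at 189 CPM, with 69.8% of its UMIs in 1 cell. Dkk3, a secreted glycoprotein of the Dickkopf family, had values that went opposite ways, with 166, 169, 98.3, 88.6 and 86.8 CPM in osteoblasts and 29.8, 41.6, 90.2, 97.7 and 70.0 CPM in fibroblasts (difference -2.10, adjusted p = 0.0012). Ramp1, Tnfsf11, Sfrp2, Dkk3 and Ddah1 kept the call in all 11 alternative fits, one of them the fit without the 9 Col2a1-high cells, and Mgll, Ccl2 and Mmp3 also passed in that fit.

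Matrix genes that osteoblasts already held at high levels formed another group. Tnn stood at 368, 696, 799, 507 and 396 CPM in osteoblasts and went from 26.9 and 24.2 to 221, 120.3 and 144 CPM in fibroblasts (difference -2.58, adjusted p = 0.00018). Postn (periostin) stood at 1521, 2118, 2634, 984 and 1345 CPM in osteoblasts and went from 533 and 571 to 2099, 1926 and 2357 CPM in fibroblasts (difference -2.10, adjusted p = 0.0011). Both calls were lost without healthy 2 (adjusted p = 0.10 and 0.95). Col1a1 (difference -1.45, adjusted p = 0.0095), Sparc (-1.29) and Col12a1 (-1.79) passed in the same direction, and these 3, Tnn and Postn also passed without the 9 Col2a1-high cells. By list, 8 of 26 bone matrix genes tested passed with the osteoblast change lower and none higher, with a median of -1.02 beside -0.04 over all genes; without the 9 cells 11 passed lower and 1 higher (median -0.99). None of the 4 osteoblast markers passed (median 0.84), nor any of 17 osteoblast transcription factors; without the 9 cells Ibsp passed higher (1.44, adjusted p = 0.011) and still none of 16 factors. Of 22 matrix proteases and inhibitors 4 passed lower, of 34 Wnt and BMP genes 4 lower, of 35 inflammatory mediators 2 higher and 3 lower, and of 8 tenocyte markers 5 lower. Without the 9 cells these counts were 6 lower and 1 higher of 22 proteases and inhibitors, 4 lower and 1 higher of 31 Wnt and BMP genes, 4 higher and 3 lower of 35 inflammatory mediators, and 4 lower of 8 tenocyte markers. Of 14 chondrocyte markers 12 passed lower, which fell to 4 of 12 without the 9 Col2a1-high cells. Col11a1 is on this list and on the bone matrix list and counts in each. Of 22 cell cycle genes 7 passed lower (median -1.18), and without the 9 cells none passed lower and 4 passed higher (median 1.56).

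**Figure D5:**
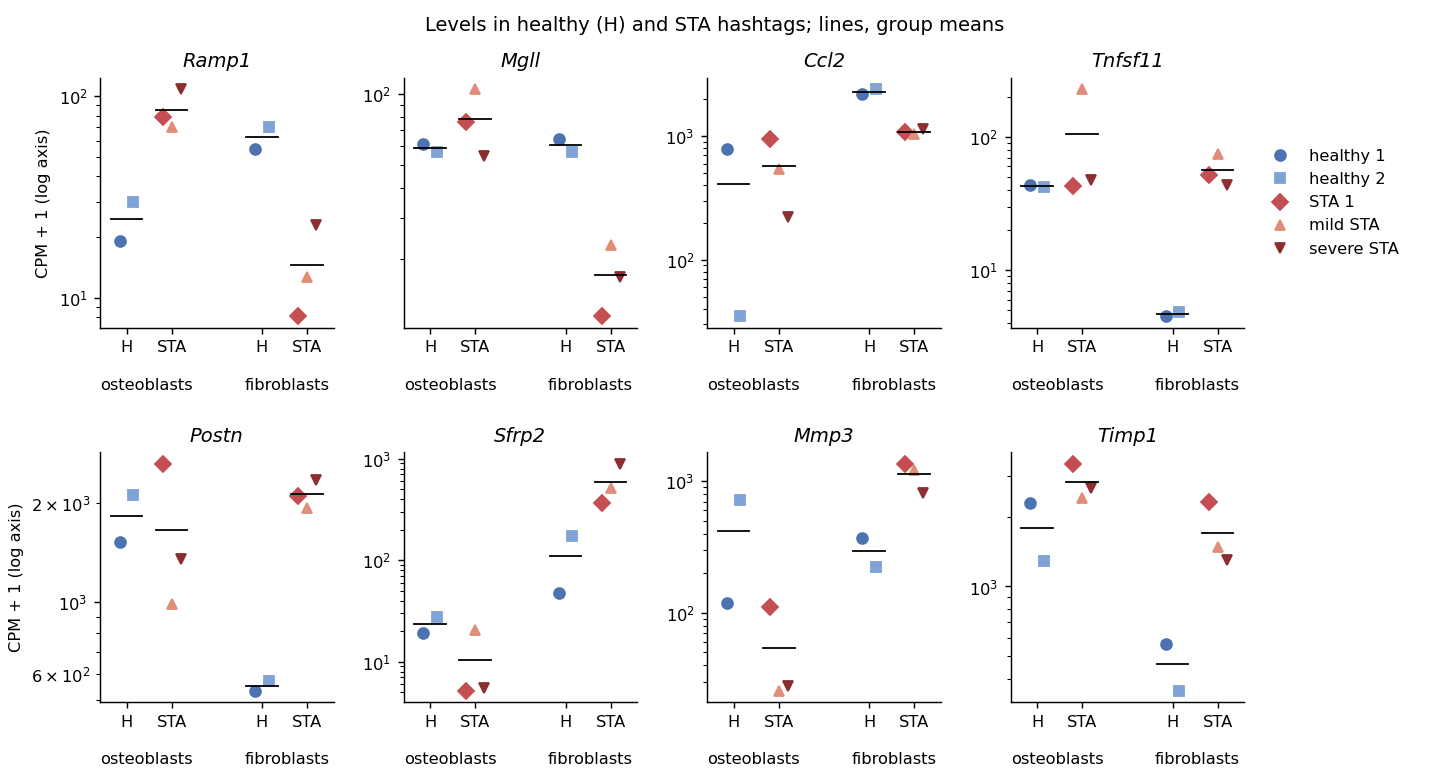
CPM + 1 (log axes that differ between panels) of 8 genes in summed osteoblasts and fibroblasts of the healthy (H) and STA hashtags, with lines at group means. Ramp1 goes opposite ways in the 2 cell groups, and Tnfsf11, Postn, Sfrp2 and Mmp3 go up in fibroblasts with overlapping or lower values in osteoblasts.

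Against chondrocytes the comparison was thin, since severe STA held 8 chondrocytes and was left out. edgeR called 7 of 4147 genes (0.169%) from 2 healthy and 2 STA hashtags, and 371 had an unadjusted p under 0.05. The osteoblast change was higher for 3 of them (0.0723%), Col2a1, Snorc and Cxcl2, and lower for 4 (0.0965%), Mgp (matrix Gla protein, an inhibitor of calcification), Hmox1, Ifitm5 and Postn. Col2a1 had a difference in log2 change of 5.17 (adjusted p = 0.0063), although 99.2% of the osteoblast Col2a1 UMIs lay in the 9 Col2a1-high cells; without them it was 4.75 (adjusted p = 0.047). The chondrocyte side is as narrow: all chondrocytes held 574 Col2a1 UMIs in 12 of 96 cells, and 380 of these UMIs lay in 1 cell. Both values of the difference therefore also depend on that chondrocyte. Mgp had a difference of -3.77 (adjusted p = 0.019). In chondrocytes Mgp stood at 2182 and 1862 CPM in healthy and at 17046 and 6320.1 CPM in STA 1 and mild STA, and in osteoblasts at 845, 5489, 974 and 792 CPM. The Ifitm5 call (difference -8.62, adjusted p = 0.034) rests on 1 UMI in mild STA osteoblasts and on 133 CPM in mild STA chondrocytes. Without the 9 Col2a1-high cells 26 genes passed, and the calls of Mgp (-1.92, adjusted p = 0.095) and Snorc (8.54, adjusted p = 0.12) were lost.

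The single Il23mc hashtag, with 16 osteoblasts, can be set beside STA 1 of the same well with 29, without a replicate check; intervals cover counting error only. Of 1297 genes with at least 50 UMIs in 1 of the 2 hashtags, 78 were past 2-fold (6.01%), 46 higher (3.55%) and 32 lower (2.47%). Among matrix genes the log2 ratio was 0.03 for Col1a1 (95% interval -0.01 to 0.07) and 0.30 for Ibsp (0.21 to 0.38), and the enzyme Alpl was lower at -0.84 (-1.14 to -0.54). Ifitm5 was higher at 100 UMIs against 39 (log2 ratio 2.13, 1.58 to 2.70), with 79.5% of the STA 1 UMIs and 47.0% of the Il23mc UMIs in 1 cell each. Bmp2, a bone morphogenetic protein, was also higher at 65 against 20 (2.47, 1.73 to 3.28). A single cell held 41.5% of the Bmp2 UMIs in Il23mc, and the 20 UMIs in STA 1 lay in 6 cells. The log2 ratio of Bmp2 ranged from 0.503 to 2.47 over 3 alternatives, so its size depended on the processing. Cxcl14, a chemokine, was higher at 505 UMIs against 61 (3.82), with 57.0% of the 505 in 1 cell. Bglap was at 1.69, but a single cell held 95.4% of its Il23mc UMIs; the same holds for Pi16 (98.8%), Serpina3n (93.1%) and Mmp3 (82.7%). Wif1, a secreted Wnt inhibitor, was lower at 3 UMIs against 58 (-3.50, -5.82 to -1.88), and so was the growth factor Hbegf at 17 against 124 (-2.09). Il11 had 0 UMIs against 52, of which 94.2% lay in 1 cell. Of 17 inflammatory mediators 5 were past 2-fold higher and none lower (median 0.47, against -0.04 over all genes); Cxcl14 is one of the 17, as is C3 (1.66), of which 90.6% of the Il23mc UMIs lay in 1 cell. Of 23 immediate early and dissociation genes 5 were also past 2-fold higher and none lower (median 0.36), and the authors' stress score had a median of 0.972 in Il23mc against -0.257 in STA 1; its part was not tested.

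Severe and mild STA shared the well of experiment 2, with 19 and 11 osteoblasts, again with no replicate check. Of 1307 genes 94 were past 2-fold (7.19%), 58 higher in severe STA (4.44%) and 36 lower (2.75%). Of 18 listed mineralisation genes, 6 had at least 50 UMIs in 1 of the 2 hashtags, and 4 of these 6 were past 2-fold higher. All 4 reached that minimum in severe STA alone, which held 449101 UMIs against 203253 in mild STA. The count and the median log2 ratio of 2.76 (0.04 over all genes) thus depend on the minimum, and no conclusion on the list is drawn. Among the 4, Ifitm5 had 184 UMIs against 1 (log2 ratio 6.38, 3.88 to 11.7). Smpd3, a sphingomyelinase needed for bone mineralisation, had 192 against 8 (3.44, 2.43 to 4.67). Sgms2, a sphingomyelin synthase, had 130 UMIs against 14 (2.07). Bmp2 had 230 UMIs against 20 (2.38, 1.72 to 3.12). Col1a1 was at 1.17 (1.11 to 1.22), Bglap at 0.86, Alpl at 0.90 and Ibsp at -0.16. Mmp13 was lower at -1.17 (-1.32 to -1.02), and Icam1, a leukocyte adhesion molecule, at -2.62. In mild STA single cells held 48.6% of the Mmp13, 47.2% of the Icam1 and 39.7% of the Col1a1 UMIs. The shares in severe STA were 40.1%, 21.1% and 25.7%. Lower values of Mpo, Plac8 and Srgn went with the single mild STA cell described above. Smpd3 in mild STA came from 2 cells and Ifitm5 from 1, and the hashtags also differed in Ddx3y and in the number of cells, so severity and these differences cannot be told apart.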

How the data were processed

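Raw UMI counts per gene and cell, deposited by the authors as matrices of the 2 fibroblast wells (75699013 and 50218813 UMIs; 6446 and 4282 barcodes), were made with Cell Ranger on mm10, version 6.1.2 per the file headers and 6.0.6 per the submitters' processing notes. The authors' deposited cell table gives the annotation, the hashtag call, the mitochondrial fraction (a share of a cell's UMIs) and a stress score. How the fraction, score and annotation were made, and whether doublets were removed, is not given in the sources used here. No cells were filtered or called doublets here. Of 3551 kept cells 3 matched no barcode. Counts were summed per hashtag and class and tested with edgeR 4.0.16 (quasi-likelihood, TMM, genes filtered by filterByExpr, experiment as a term, hashtags as blocks in the interaction fits; R 4.3.3), with Benjamini-Hochberg adjustment over all genes. DESeq2 1.42.0 was an alternative. The planned minimum of 20 cells per hashtag left 1 STA hashtag and no residual degrees of freedom, so the fits with a minimum of 10 cells give the test.

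On simulated counts the STA test recovered 12.5% of 2-fold and 68.75% of 4-fold changes among 5206 genes with 3 false calls, the fibroblast interaction 7.61% and 52.7% among 10498 genes with 4, and the chondrocyte interaction 0% and 14.4% among 3975 genes. CPM ratios of 1 hashtag with 1 have exact 95% counting intervals (scipy 1.17.1); UMIs are single molecules, but cells of a hashtag are not replicates. P-values measure the spread between hashtags, which may hold several animals each. A hashtag's experiment is its replicate block, since the labels put healthy 1 and STA 1 in 1 well and the other 3 in another, and the osteoblasts, chondrocytes and fibroblasts of a hashtag come from the same animals.

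The members and gene lists were chosen with earlier results of these data known. Named genes are fixed ones (the 4 markers, Runx2, Sp7, Dmp1, Sost, Spp1, Col1a1, Tnfsf11, Tnfrsf11b, Mmp13, Pth1r, Phex), up to 4 passing members of a list, up to 10 genes per direction in each test (at least 20 CPM, no overlap of groups) or in each ratio (at least 50 UMIs), and 25 leading genes with at least 100 CPM. The genes with the lowest p in the STA test, Bglap2, the 9 Col2a1-high cells, the cell with most Mpo and the motifs TATAAA and CCAAT were picked after seeing the data. Promoters are RefSeq windows; gene positions come from GENCODE M21. Alternatives were other size factors, no filter on low counts, cells with at least 2 markers, no replicate block, each hashtag left out, cells thinned to 2000 UMIs, and the sets without the Col2a1-high cells or the cell highest in Ibsp.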

Additional observations from a re-analysis of the deposited data

Results flagged for a closer look

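The STA change differed between osteoblasts and the fibroblasts of the same hashtags for 134 of 10723 genes, by edgeR's interaction test of the difference itself. Between osteoblasts and chondrocytes it differed for 7 of 4147 genes by the same kind of test, from 2 healthy and 2 STA hashtags. In both counts the 9 Col2a1-high cells take part: without them the counts were 190 and 26.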

How the results depend on the processing

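The count of genes between STA and healthy osteoblasts (0) became 16 with DESeq2, 129 with no filter on low counts, 36 with cells of at least 2 markers, 2 without the Col2a1-high cells and 0 to 112 with 1 hashtag left out; it was 0 with upper quartile factors, without the cell high in Ibsp and with thinned cells. With no replicate block, the STA test had no term for the experiment. The interaction fits then kept the hashtags as blocks and left out the term for cell type by experiment. The counts were 0 for the STA test, 47 for the fibroblast difference in place of 134, and 0 for the chondrocyte difference in place of 7. The fibroblast difference gave 46 genes with DESeq2, 239 with no filter and 72 to 263 with 1 hashtag left out; the chondrocyte difference gave 2 with DESeq2, 75 with no filter and 26 without the Col2a1-high cells, and leaving out healthy 1, healthy 2, STA 1 or mild STA, or asking for 2 markers, left it no residual degrees of freedom. The Il23mc ratio put 269 genes past 2-fold with a minimum of 20 UMIs in place of 78. The difference in osteoblast share (3.22 points) was 2.97 to 3.40 with 1 hashtag left out, and -12.1 among osteoblasts and chondrocytes. The 4 marker means moved by less than their SD in all alternatives. With 1 of 6 hashtags left out a mean cannot move by more than that, so this outcome was fixed in advance. The SDs are also wide, and no conclusion on stability is drawn.

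Single STA log2 fold changes that turned sign with 1 hashtag left out were those of Ibsp (-1.91 to 2.31), Alpl (-0.84 to 0.17), Ifitm5 (-1.98 to 0.39), Runx2 (-1.01 to 0.34), Spp1 (-2.41 to 1.27), Col1a1 (-0.083 to 0.62), Pth1r (-0.47 to 0.73) and Mmp13 (-0.56 to 0.80). Other turns were Ibsp at -0.89 with no replicate block and -0.20 with thinned cells, Ifitm5 at 0.45 with cells of at least 2 markers, 0.052 with no replicate block and 0.020 without the cell high in Ibsp, Spp1 at 0.40 without that cell, and Mmp13 at -0.089 with at least 2 markers, -0.018 without the Col2a1-high cells and -0.037 with thinned cells. In the fibroblast difference Ccnb1 (0.12), Matn3 (5.96), Birc5 (2.48), Ube2c (8.70) and Cdk1 (8.69) turned sign without the Col2a1-high cells. The cause was not tested. Of 267 single-gene values in the STA test 63 gained the call, and of 471 in the fibroblast difference 107 lost it. With 11 to 31 osteoblasts per hashtag, depth and cell number limit what can be seen.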

Other observations

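The Col2a1-high cells also held more cell cycle RNA. The summed cell cycle list stood at 6237 CPM in the 9 cells and 2266 CPM in the other 118 osteoblasts, and the 9 cells held 31.3% of its UMIs from 14.2% of all osteoblast UMIs. Mki67, a proliferation marker, had 3 or more UMIs in 4 of the 9 and in 5 of the 118. The cells were chosen by Col2a1 after seeing the data, and these values are a description with no test.

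Among chondrocytes, the levels of the osteoblast markers were uneven between hashtags. Ibsp stood at 788, 483, 11.8, 634, 54.9 and 56.3 CPM, with healthy 1, healthy 2 and mild STA high. Bglap stood at 1244 CPM and Bglap2 at 869 CPM in mild STA chondrocytes, and Bglap at 177 CPM in healthy 1, while Bglap had no UMI in healthy 2 and severe STA chondrocytes. Alpl stood at 503 and 368 CPM in the chondrocytes of healthy 1 and mild STA.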
